A study of Mus musculus with 16 samples.

Results

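Voltage-gated sodium and calcium channels and the potassium channels were examined as 1 set of genes in mouse rhabdoid tumors. Members were taken by symbol: the Scn alpha and beta subunits, the Kcn genes, and the Cacna1, Cacna2d, Cacnb and Cacng subunits. Of 132 symbols that fit this pattern and had a count above 0 in any tumor, Kcnj13 and Kcne2 were left out by the rule, which left 130 of the 21854 genes detected. By name the members fall into 10 sodium channel alpha subunits and 4 beta subunits, 40 voltage-gated potassium channel alpha subunits and 10 auxiliary subunits, 14 inward rectifiers, 14 K2P channels, 12 calcium- or sodium-activated potassium channel genes, and 10 alpha1, 4 alpha2delta, 4 beta and 8 gamma subunits of calcium channels.

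Polyadenylated RNA was sequenced from 16 primary tumors, 1 per mouse, of the genotype Smarcb1flox/flox;R26-CreERT2. In this model tamoxifen given in utero activates a Cre that is not restricted to a cell type, and the floxed copies of Smarcb1, a subunit of the SWI/SNF chromatin remodelling complex, are deleted. There were 5 tumors within the brain (intra-CNS), which the study assigned to the Shh subgroup, and 11 of its Myc subgroup, of which 6 were intracranial outside the brain tissue and 5 were extracranial. The study named the subgroups in part from the expression of these same tumors, whereas the groups compared here follow the site in the labels. All 5 Shh mice received tamoxifen at embryonic day 6, against 2 Myc mice at day 6, 1 at day 7 and 8 at day 8, so the day and the subgroup can largely not be told apart. The Shh mice were 30 to 180 days old and the Myc mice 52 to 210 days old. Tissue without the deletion was not analysed here. The tumors were macrodissected, so that other cells of the brain, skull or jaw could be included. In such bulk RNA, fewer cells of a type and less RNA per cell cannot be told apart.

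The alpha subunit of a voltage-gated channel forms the pore and senses the membrane potential, while beta, alpha2delta and gamma subunits alter its gating or bring it to the membrane. Sodium channels start the action potential, Kv potassium channels end it, calcium channels couple it to calcium entry, and inward rectifier and K2P channels set the resting potential. In the brain these genes mark neurons above all, but glia, muscle, secretory epithelia and immune cells use sets of their own, so that the channel genes a tissue transcribes follow its cell types.

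Total counts per tumor ranged from 17889968 to 110177889, and neither subgroup was sequenced more deeply throughout (Shh 23711872 to 67455067). Smarcb1 itself, of which the deletion removes a part, was listed at 3.99 to 58.1 TPM (a level scaled for gene length and depth, as deposited), with the highest values in the Shh tumor of mouse 29048 and, at 43.7 TPM, in the Myc tumor of R26P115. The tumor of 29048 also stood apart in lists of marker genes. Its 10 oligodendrocyte markers summed to 6943 TPM against 47.7 to 182 TPM in the other Shh tumors, and its 12 markers of mature neurons to 5626 TPM against 146 to 2019 TPM. In the tumor of R26P115 the 7 choroid plexus markers summed to 204637 TPM, which lowers the TPM of every other gene in it. Counts of calls are given with and without these 2 tumors, and most calls that change without either of them are named. TPM also ran higher in Shh tumors for genes in general. Over 9934 genes with 50 counts or more in each tumor, the TPM scale lay above that of the TMM-normalised counts used for the fold changes by 0.53 more (log2) in Shh than in Myc tumors, and levels in TPM carry this shift throughout.

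The promoters of 4 genes are shown. Kcnn4 and Kcnk5 were the 2 members for which every Shh tumor was below every Myc tumor, and Kcnc2 was the member with the highest fold change. Kcnh6 was chosen for its sequence, as the only member whose window held the start of the REST site. Each window runs from 250 bases before to 50 bases after a RefSeq transcription start (GRCm38.p6), 5′ to 3′ on the strand of the gene, with capitals for the letters CACGTG (an E-box bound by MYC and MAX) in the windows of Kcnn4 and Kcnk5 and for TTCAGCACC (the first letters of the site bound by REST) in that of Kcnh6. The window of Kcnc2, which is 1 of 4 that RefSeq gives for the gene, holds neither.
Kcnn4, chr7:24370013-24370312, plus strand: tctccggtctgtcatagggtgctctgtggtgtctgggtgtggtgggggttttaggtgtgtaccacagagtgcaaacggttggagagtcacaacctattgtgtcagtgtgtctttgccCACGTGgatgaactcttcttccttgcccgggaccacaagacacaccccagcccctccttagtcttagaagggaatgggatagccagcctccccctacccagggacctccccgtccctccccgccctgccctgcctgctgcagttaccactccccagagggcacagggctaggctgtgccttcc
Kcnk5, chr14:20181733-20182032, minus strand: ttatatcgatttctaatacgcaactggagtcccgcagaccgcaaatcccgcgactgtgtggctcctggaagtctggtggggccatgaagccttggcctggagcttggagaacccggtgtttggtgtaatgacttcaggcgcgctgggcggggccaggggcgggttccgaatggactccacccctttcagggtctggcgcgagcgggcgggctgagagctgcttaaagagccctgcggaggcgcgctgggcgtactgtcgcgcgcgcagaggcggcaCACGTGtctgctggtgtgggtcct
Kcnc2, chr10:112270871-112271170, plus strand: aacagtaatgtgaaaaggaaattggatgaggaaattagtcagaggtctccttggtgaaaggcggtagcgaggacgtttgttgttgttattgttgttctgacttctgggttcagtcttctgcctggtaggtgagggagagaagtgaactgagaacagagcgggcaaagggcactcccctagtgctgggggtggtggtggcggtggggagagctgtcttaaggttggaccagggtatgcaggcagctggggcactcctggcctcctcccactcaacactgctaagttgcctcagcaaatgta
Kcnh6, chr11:106007898-106008197, plus strand: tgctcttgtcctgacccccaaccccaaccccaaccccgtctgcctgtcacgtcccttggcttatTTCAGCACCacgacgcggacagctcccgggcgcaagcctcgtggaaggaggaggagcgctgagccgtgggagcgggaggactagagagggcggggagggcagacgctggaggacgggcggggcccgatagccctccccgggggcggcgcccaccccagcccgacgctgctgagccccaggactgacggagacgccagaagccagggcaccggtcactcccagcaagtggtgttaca

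Windows were found for 95 members, and both strands were searched (CACGTG reads the same on both). CACGTG was present in 6 of the 95 members, or 6.32%, against 9.81% of the 16282 genes with a window, and the genes were Kcnab1, Kcne4, Kcnh4, Kcnj2, Kcnk5 and Kcnn4. It occurred in 3 of 44 members that were higher in Shh tumors and in 2 of 5 that were lower. TTCAGCACC was present in 1 of 95 members and in 0.51% of all genes with a window. These counts describe the letters in 300 bases and not the binding of a factor.

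The first comparison asked which channel genes differ between Shh and Myc tumors. Of the 130 members, 60 were higher in Shh tumors (46.2%; 12.9% of all 21854 genes tested were higher by the same rule) and 6 were lower (4.62%; 13.1% of all genes), where a call took an adjusted p under 0.05 in edgeR's quasi-likelihood fit and a log2 fold change beyond 1 in size. The median log2 fold change of the members was 2.08, beside -0.15 over all genes. On normalised counts, every Shh tumor was above every Myc tumor for 21 members (16.2%; 5.43% of all genes) and below for 2 members (5.72% of all genes). The plot of fold changes by family shows the members that rose in every family but the alpha2delta subunits, and the members that fell in potassium channel families alone, where 43 of the 90 Kcn genes were higher and 6 lower.

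**Figure D1:**
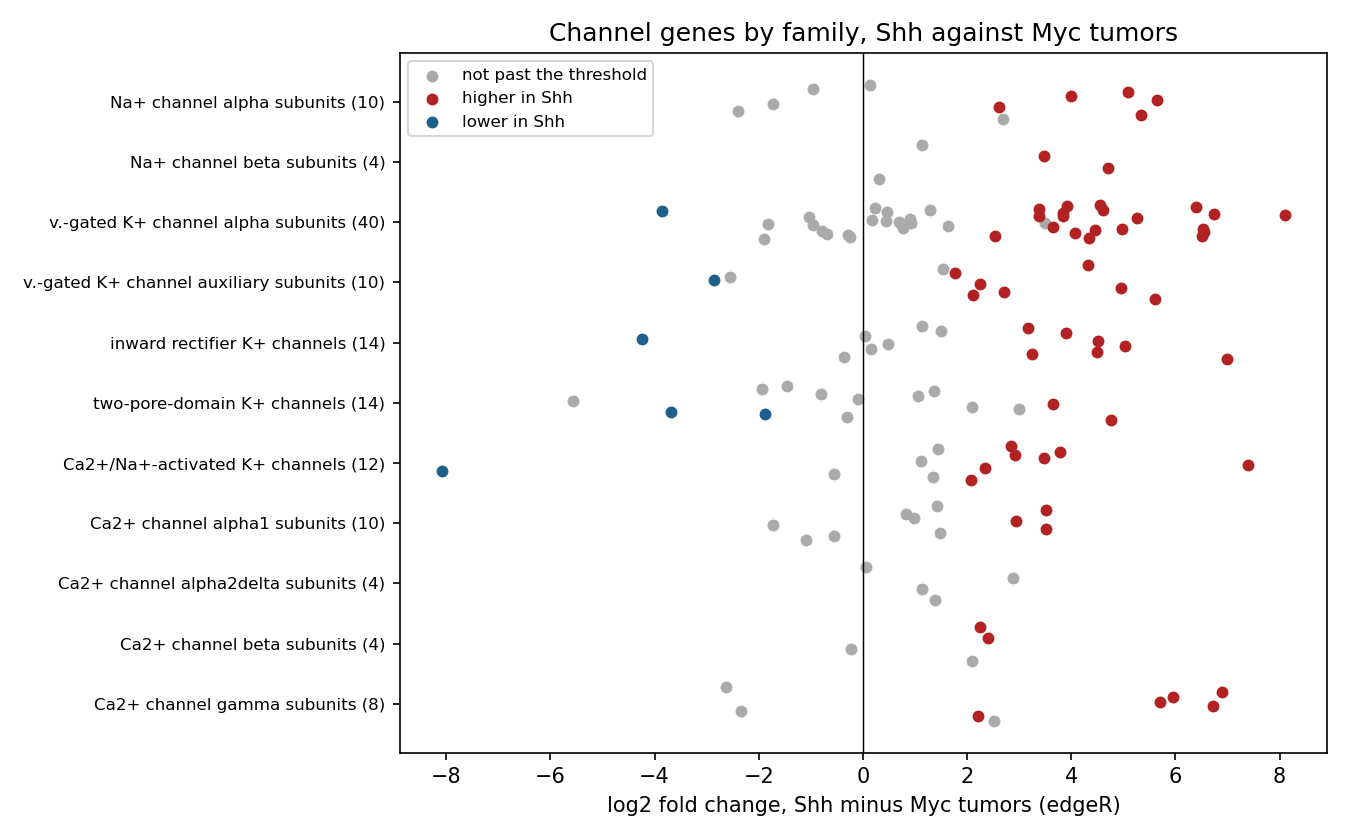
Log2 fold change (Shh minus Myc tumors, edgeR) of each of the 130 channel genes on the x axis, in rows by family with the number of members, and coloured where the gene passed the test. The 60 higher members reach 8.11 (Kcnc2), the 6 lower members reach -8.08 (Kcnn4), and the alpha2delta subunits have no member that passed with all 16 tumors.

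Without the tumor of 29048, 46 of the 60 higher members passed the test and 14 did not, among them Cacna1e, Cacnb2, Kcna4, Kcnab3, Kcne4, Kcnip3, Kcnj6, Kcnj10, Kcnj12, Kcnj16, Kcnmb2, Kcnmb3 and Kcns1. All 60 kept their direction. Over all genes, 2406 were called higher without the tumor of 29048, against 2829 with all 16 tumors. Fold changes stayed close for Cacna1e (log2 fold change 2.94 with the tumor and 2.62 without it) and Kcne4 (2.26 and 1.86, adjusted p = 0.0640 without it, edgeR). They shrank for Kcnj10 (3.16 and 0.40), Kcnj16 (4.5 and 2.38, adjusted p = 0.0902), Kcnj12 (3.91 and 1.71, adjusted p = 0.0849), Kcna4 (3.37 and 2.31, adjusted p = 0.178), Kcnmb2 (3.79 and 1.85), Kcns1 (2.54 and 1.09) and Kcnab3 (1.77 and 0.73). The tumor of 29048 was the highest Shh tumor for 40 of the 60 members and that of 38594A for 14. Without the Myc tumor of R26P115 alone, all 60 passed and 8 further members were called higher, namely Cacna2d2, Cacna2d4, Cacnb4, Kcng4, Kcnk4, Kcnmb1, Kcnt2 and Kcnv2. Of these, Kcnv2 turned from a log2 fold change of -1.90 to 3.04, at a mean of 3.38 counts. Over all genes, 3565 were called higher without the tumor of R26P115. With the tumors of 29048 and R26P115 both left out, 47 of the 60 passed, as did 5 of the 6 lower members. Of all genes, 3072 were called higher and 2808 lower in that fit.

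The markers of several cell types moved with the subgroups, and their part in the channel results was not tested. Of 9 markers of immature neurons, 8 were higher in Shh tumors, with sums of 297 to 2136 TPM against 3.96 to 459 TPM in Myc tumors. Of 12 markers of mature neurons 7 were higher (146 to 5626 TPM against 42.8 to 1758 TPM), as were 7 of 10 oligodendrocyte markers (47.7 to 6943 TPM against 43.7 to 148 TPM) and 4 of 8 astrocyte markers (180 to 2990 TPM against 15.7 to 620 TPM). All 8 myeloid markers were lower in Shh tumors (667 to 1092 TPM against 891 to 8415 TPM), and 6 of 11 skeletal muscle markers were lower (6.40 to 85.3 TPM against 8.07 to 864 TPM). Of the other lists, 3 of 7 lymphoid, 2 of 7 endothelial and 1 of 7 choroid plexus markers were lower, 1 of 8 mural cell markers was higher and 1 lower, and 3 of 7 endocrine markers were higher. For scale, 12.9% of all genes were called higher and 13.1% lower. None of these markers was at 0 in every tumor of either subgroup.

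More channel genes reached 1 TPM in each Shh tumor than in any Myc tumor on both scales. The number at 10 TPM or more and the sum over all members overlapped once the shift of the TPM scale was removed. At least 75 and up to 107 members were listed at 1 TPM or more in a Shh tumor, with a median of 93, against 29 to 58 with a median of 45 in Myc tumors. At 10 TPM or more there were 19 to 69 members in Shh tumors and 7 to 17 in Myc tumors. With TPM rescaled to the TMM-normalised counts, 65 to 102 members were at 1 or more in Shh tumors and 31 to 61 in Myc tumors. At 10 or more on that scale there were 16 to 67 members in Shh tumors and 7 to 17 in Myc tumors, with overlap. Over all genes, 14162 to 15482 were listed at 1 TPM or more in Shh tumors and 12982 to 14166 in Myc tumors. At 10 TPM or more, all genes gave 10349 to 11269 in Shh tumors and 8823 to 9773 in Myc tumors. The summed TPM of all members was 4367 in the tumor of 29048 and 1044 to 2181 in the other 4 Shh tumors, and 509 to 894 in Myc tumors. After the rescaling the sums were 822 to 3376 in Shh tumors and 575 to 918 in Myc tumors. Of the 60 higher members, 49 had a median under 1 TPM in Myc tumors, and 54 had a mean of at least 1 TPM in Shh tumors. Of the 60, 16 had a mean of at least 1 TPM in Myc tumors.

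**Figure D2:**
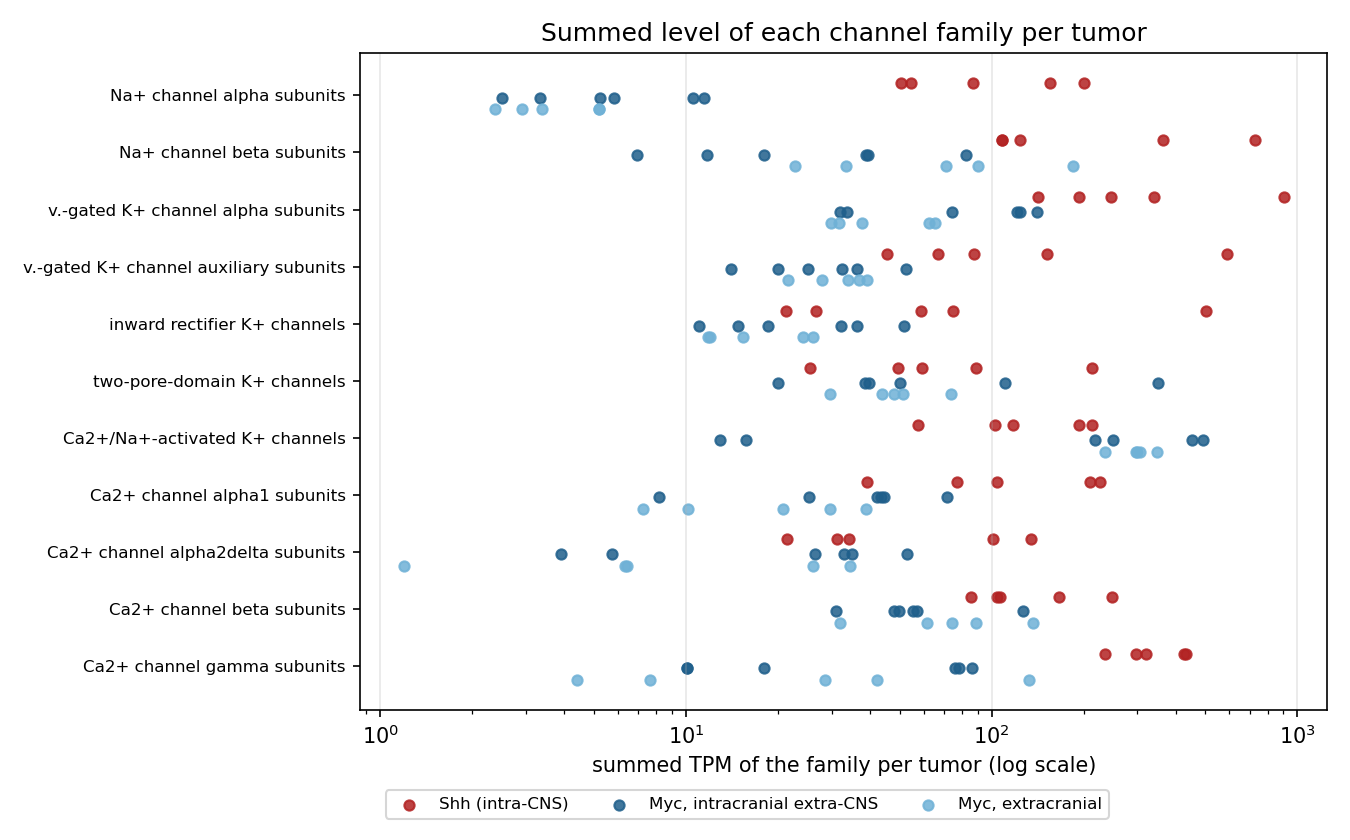
Summed TPM of the members of each family on a log x axis, 1 point per tumor, with Shh, intracranial Myc and extracranial Myc tumors in separate colours. The sodium channel alpha and calcium channel gamma sums of the 5 Shh tumors lie above those of all 11 Myc tumors, on this scale and on the rescaled one. Calcium- and sodium-activated potassium channels have both their highest and their lowest sums in Myc tumors (13.0 to 492 TPM, against 57.3 to 212 TPM in Shh tumors).

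Of the 10 sodium channel alpha subunits, which form the sodium pore, 5 were higher in Shh tumors and none was lower. Their summed level was 50.7 to 200 TPM in Shh tumors (median 87.2) and 2.38 to 11.4 TPM in Myc tumors (median 5.20). Scn3a, an alpha subunit typical of the embryonic brain (chr2:65457118-65567627), was the highest of them on average, at 29.7, 52.3, 46.3, 29.2 and 14.3 TPM in the Shh tumors of 29048, 38594A, 29050A, R26P98 and R26P87, an order kept below. In Myc tumors it was listed at 0.0447 to 2.5 TPM with a median of 0.218, and its log2 fold change was 5.65 ± 0.80 (SE, adjusted p = 9.09e-05, edgeR; 5 against 11 tumors, as for all folds of this comparison). All Shh tumors exceeded all Myc tumors.

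Scn1a, the alpha subunit of many mature inhibitory neurons, was at 70.3, 17.1, 13.0, 6.22 and 4.19 TPM in Shh tumors and at most 1.42 TPM in Myc tumors (log2 fold change 5.08 ± 0.86, adjusted p = 0.000353, edgeR). Scn8a, which is placed at the axon initial segment and nodes, was at 46.1, 27, 10.7, 9.03 and 17.7 TPM against at most 1.71 TPM (5.34 ± 0.83). Scn2a, the other main alpha subunit of excitatory neurons, was at 44.9, 38.3, 14.7, 7.51 and 8.12 TPM against at most 2.18 TPM (3.99 ± 0.54). The groups did not overlap for any of these 4 brain subunits. Among them Scn3a led in 3 Shh tumors, Scn1a in that of 29048 and Scn8a in that of R26P87. The ratio of Scn3a to Scn1a was 0.422 in the tumor of 29048 and 3.06 to 4.69 in the other 4.

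**Figure D3:**
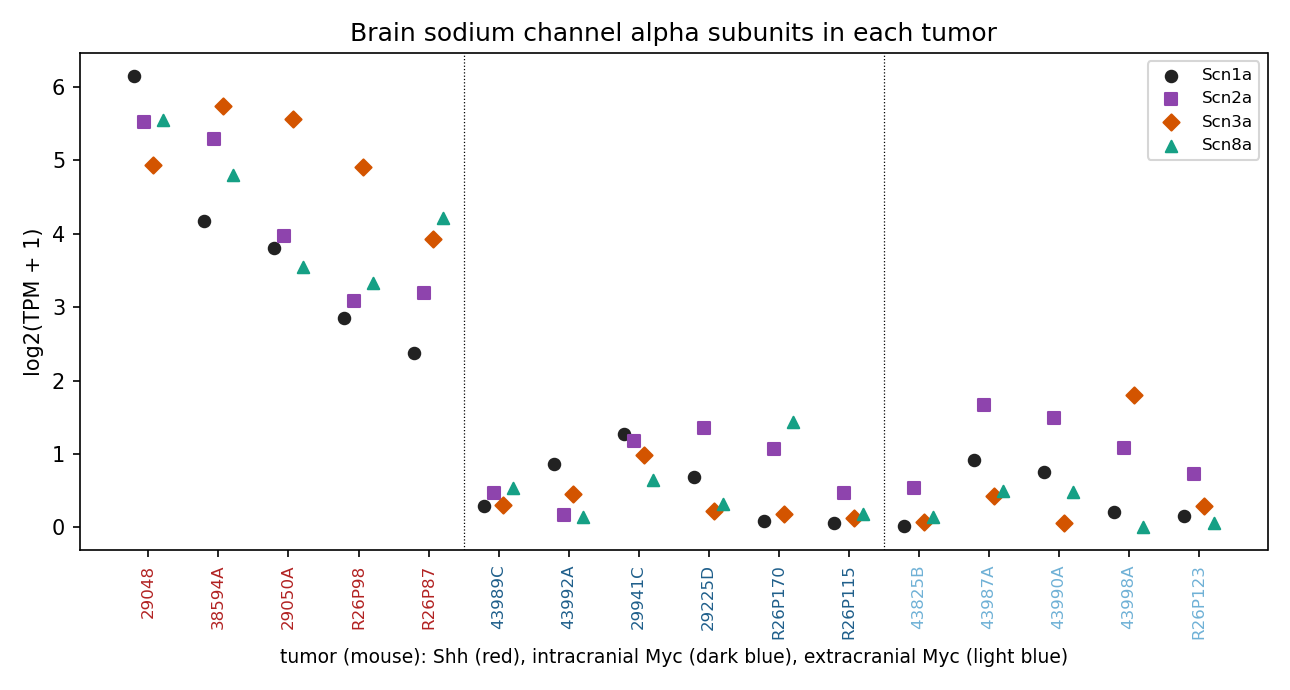
Level of Scn1a, Scn2a, Scn3a and Scn8a as log2(TPM + 1) on the y axis in each of the 16 tumors on the x axis, 1 marker per gene. All 4 genes are higher in each Shh tumor than in any Myc tumor, and Scn1a is above Scn3a in the Shh tumor of 29048 (70.3 against 29.7 TPM) but below it in the other 4.

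Alpha subunits of other tissues made a different picture. Scn4a of skeletal muscle and Scn10a and Scn11a of sensory neurons were under 1 TPM in all 16 tumors and did not pass. The genes Scn3a, Scn2a, Scn1a, Scn9a and Scn7a are neighbours on chr2:65457118-66784914. Scn9a, a subunit of peripheral neurons, was at 0.167 to 13.7 TPM in Shh and at most 2.64 TPM in Myc tumors and did not pass (2.69 ± 1.25, adjusted p = 0.108). Scn7a, a sodium-sensing relative found in glia, was at 0.0453 to 1.78 TPM against 0.289 to 6.24 TPM (log2 fold change -2.39 ± 0.92, adjusted p = 0.0560), and so had the opposite sign to its neighbours without passing.

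Beta subunits adjust sodium channel gating and act in cell adhesion, and 2 of 4 were higher in Shh tumors. Scn3b was at 90.3, 251, 34.3, 39.6 and 85.8 TPM in Shh tumors and 0.297 to 9.66 TPM in Myc tumors (log2 fold change 4.70 ± 0.76, adjusted p = 0.000236, edgeR), and no Myc tumor reached the lowest Shh tumor. Scn2b was at 140, 51.9, 33.2, 30.3 and 16.5 TPM against 0.200 to 15.5 TPM (3.48 ± 0.80, adjusted p = 0.00347). Scn4b, a neighbour of Scn2b on chromosome 9, was set apart by 1 Myc tumor: it was at 147 TPM in that of 43990A and at most 2.12 TPM in the other Myc tumors.

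Of the 40 Kv alpha subunits, which repolarise the membrane, 20 were higher in Shh tumors, 1 was lower and 19 did not pass. The summed level was 901 TPM in the tumor of 29048, 142 to 339 TPM in the other Shh tumors and 29.9 to 141 TPM in Myc tumors. With TPM rescaled to the TMM-normalised counts the sums overlapped, at 111 to 697 in Shh tumors and 33.7 to 159 in Myc tumors. The genes that rose came from several branches, among them the Kv1 (Kcna), Kv2 (Kcnb), Kv3 (Kcnc), Kv4 (Kcnd), M-current (Kcnq) and Eag-related (Kcnh) channels, and from silent subunits that form no channel alone.

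The Kv3 genes encode fast channels of neurons that fire at high rates, and Kcnc1, Kcnc2 and Kcnc4 were higher in Shh tumors. Kcnc2 (chr10:112271121-112467024), whose promoter is printed above, had the highest fold change of all members, with 115, 14.2, 49.4, 74.8 and 107 TPM in Shh tumors and 0.0672 to 0.490 TPM in Myc tumors (median 0.117). Its log2 fold change was 8.11 ± 0.56 (adjusted p = 2.69e-07, edgeR) and 7.88 without the tumor of 29048. It led the Kcn genes in the tumors of 29050A, R26P98 and R26P87. Kcnc1 was at 68.6, 20.8, 11.1, 7.31 and 7.70 TPM against 0 to 0.420 TPM (6.75 ± 0.73, adjusted p = 1.11e-05), and in both genes every Shh tumor lay far above every Myc tumor. Kcnc4 was at 37.4, 18.1, 8.94, 1.91 and 2.06 TPM against 0.0906 to 2.03 TPM (3.85 ± 0.79, adjusted p = 0.00147).

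Of the Kv1 genes, which encode low-threshold channels of axons, Kcna1, Kcna2, Kcna4, Kcna6 and Kcna10 were called higher. Kcna2 was at 52.8, 8.71, 6.18, 2.77 and 39.7 TPM in Shh tumors and 0.00905 to 0.974 TPM in Myc tumors (log2 fold change 6.39 ± 0.96, adjusted p = 0.000143, edgeR). Kcna1, its partner in axons, was at 65.3, 0.700, 3.99, 0.0988 and 34.0 TPM against at most 2.43 TPM (4.55 ± 1.13), so that 2 of the 5 Shh tumors lay within the Myc range. Kcna10 had no read in any Myc tumor and at most 4 counts in a Shh tumor, too few to give a fold. Kcna3, the Kv1 gene best known from lymphocytes, did not pass, at 0.169 to 2.41 TPM in Shh and 0.0951 to 1.11 TPM in Myc tumors. Kcna7 was the only Kv alpha gene that fell (log2 fold change -3.86 ± 1.06, adjusted p = 0.0104), from a level of at most 0.687 TPM.

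The M-current, a slow potassium current that restrains repeated firing, is carried in part by Kcnq3, which was higher in Shh tumors. Kcnq3 was at 5.05, 2.57, 0.962, 0.385 and 2.46 TPM against at most 0.376 TPM (log2 fold change 4.07 ± 0.78, adjusted p = 0.000892, edgeR). Kcnq1, the gene of heart and epithelia, and Kcnq5 did not pass, with log2 fold changes of -0.79 and -0.29.

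Among the others, Kcnd2, which carries the A-type current of dendrites, was at 67.4, 37.4, 13.1, 4.38 and 5.34 TPM against 0.0197 to 1.57 TPM (log2 fold change 5.26 ± 0.78, adjusted p = 0.000123, edgeR). Its relatives Kcnd1 and Kcnd3 did not pass (-1.03 ± 0.64 and 0.90 ± 1.15). The silent subunit Kcns2 was at 14.4, 6.18, 0.754, 0.179 and 0.396 TPM against 0 to 0.130 TPM (6.51 ± 1.16, adjusted p = 0.000516). Of the Eag-related genes Kcnh4, Kcnh6, Kcnh7 and Kcnh8 were higher, all at or under 8.64 TPM. Kcnh6, whose promoter window holds the first letters of the REST site, was at 3.93, 3.98, 1.67, 0.117 and 0.116 TPM against at most 0.124 TPM (4.96 ± 0.98). Kcnh2, the hERG channel, did not pass (-0.95 ± 1.14, adjusted p = 0.529), at 1.98 to 40.3 TPM in Shh tumors and up to 86.6 TPM in the Myc tumor of 29225D.

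**Figure D4:**
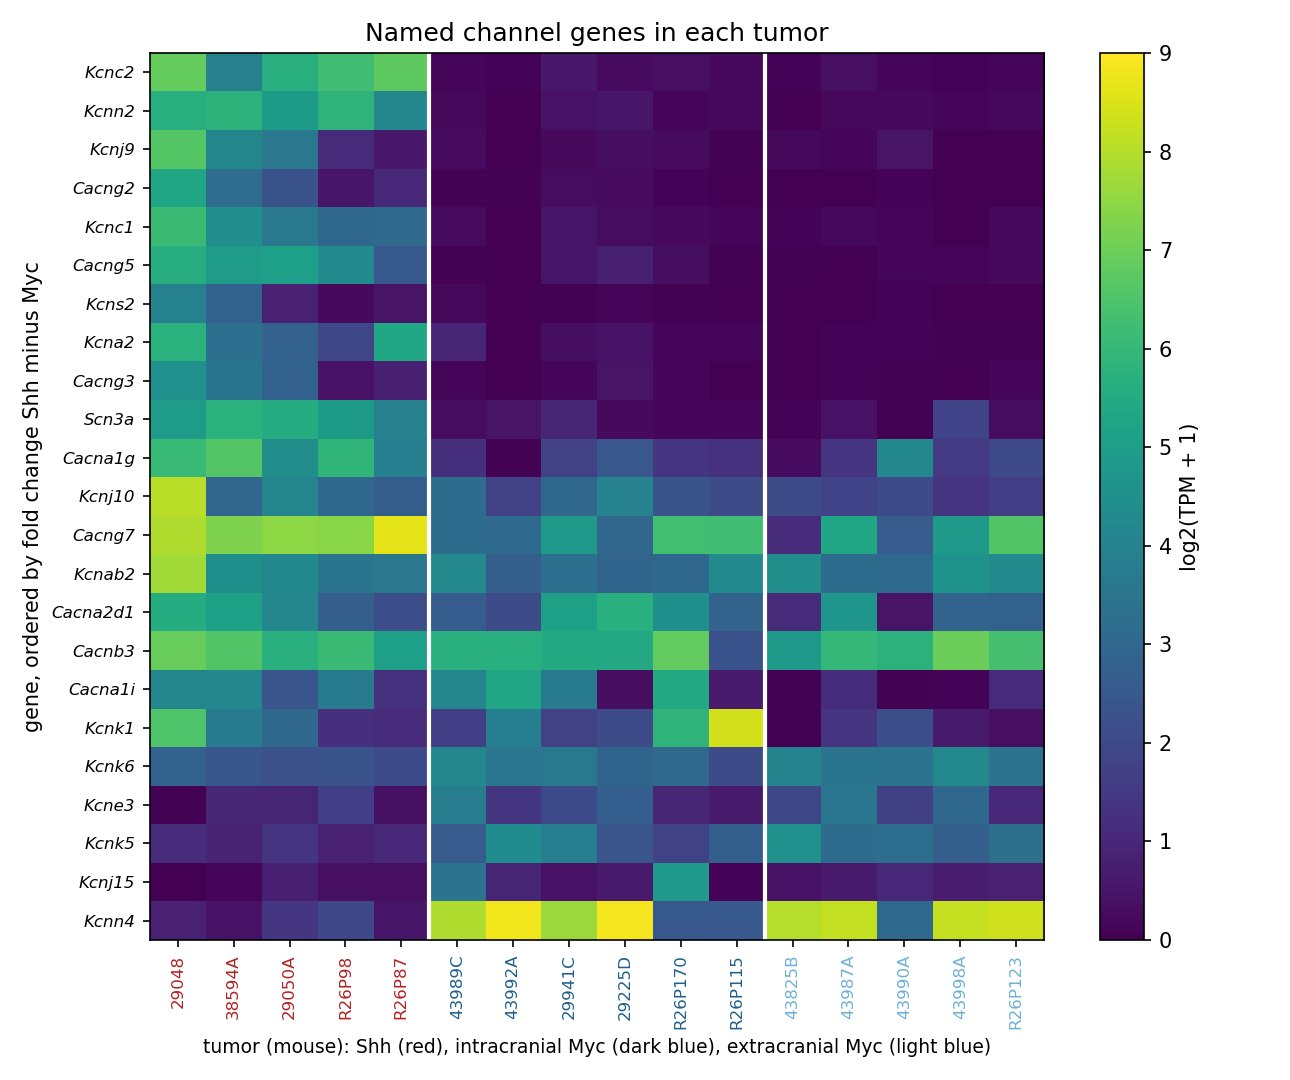
Level as log2(TPM + 1), by colour, of the channel genes named by rule (rows, from the highest to the lowest log2 fold change, Shh minus Myc) in each of the 16 tumors (columns). Kcnn4, the bottom row, is bright in 8 Myc tumors and dark in those of R26P170, R26P115 and 43990A, and most upper rows are brightest in the Shh tumor of 29048.

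Of the 10 auxiliary subunits of Kv channels, 7 were higher, 1 was lower and 2 did not pass. The KChIP genes encode calcium-binding partners of Kv4 channels, and all 4 rose. Kcnip4 was at 87.7, 24.6, 6.93, 3.00 and 2.24 TPM against at most 1.15 TPM (log2 fold change 5.61 ± 0.91, adjusted p = 0.000254, edgeR), and Kcnip1 at 38.3, 20.8, 16.7, 7.11 and 2.42 TPM against at most 1.36 TPM (4.95 ± 0.91). Kcnip3, also known as the transcriptional repressor DREAM, passed only with the tumor of 29048 (2.11 ± 0.67, and 1.05 ± 0.65 with adjusted p = 0.226 without it). Kcnab2, a Kv1 beta subunit and the family's highest on average, was at 216 TPM in the tumor of 29048 and 9.92 to 21.5 TPM in the other Shh tumors, against 5.64 to 23.6 TPM, and did not pass (1.53 ± 0.62, adjusted p = 0.0697), but did so without the tumor of R26P98 or R26P87 (adjusted p of 0.0408 and 0.0430). Without the tumor of 29048 the log2 fold change of Kcnab2 turned to -0.35 ± 0.44 (adjusted p = 0.554). Kcne3, a small subunit of epithelial Kcnq1 channels, fell: it was at 0.0494, 0.938, 0.885, 2.19 and 0.322 TPM in Shh tumors and 0.583 to 13.2 TPM in Myc tumors (-2.85 ± 0.91, adjusted p = 0.0246). The call of Kcne3 was lost without the tumor of 38594A, 29050A or R26P87 (adjusted p from 0.0538 to 0.0608).

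Inward rectifiers pass potassium into the cell and hold the resting potential, and 7 of 14 were higher in Shh tumors and 1 was lower. Kcnj3, Kcnj5, Kcnj6 and Kcnj9 encode the GIRK subunits that G proteins open, and all 4 rose, of which Kcnj6 lost its call without the tumor of 29048 (log2 fold change 3.25 with it and 2.18 ± 1.09, adjusted p = 0.144, without it). Kcnj9 was at 98.6, 16.6, 11, 1.17 and 0.541 TPM against 0 to 0.376 TPM (log2 fold change 7.0 ± 1.05, adjusted p = 0.000137, edgeR), and Kcnj3 at 51.5, 16.3, 5.14, 1.32 and 2.55 TPM against 0.0402 to 1.17 TPM (5.02 ± 0.81). In both genes the tumors of 29048 and 38594A were the highest and the 2 R26P tumors the lowest of the Shh tumors.

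Kcnj10, the rectifier of astrocytes and oligodendrocytes (chr1:172341210-172374085, next to Kcnj9), had the highest mean level of the family through a single tumor. It was at 266 TPM in that of 29048 and at 6.75, 15.9, 7.13 and 5.26 TPM in the other Shh tumors, against 1.53 to 14.7 TPM in Myc tumors. Its log2 fold change of 3.16 ± 0.78 (adjusted p = 0.00539, edgeR) became 0.40 ± 0.51 (adjusted p = 0.567) without that tumor, in which the oligodendrocyte and astrocyte markers were also highest. Kcnj16, which combines with Kcnj10 in glia, behaved alike in level, at 14.6 TPM in the tumor of 29048 and at most 2.18 TPM in the others. Kcnj15 fell (-4.23 ± 1.51, adjusted p = 0.0407), but mainly through the Myc tumors of R26P170, at 28.1 TPM, and 43989C, at 9.74 TPM. The Myc median of Kcnj15 was 0.596 TPM, within the Shh range of 0.0155 to 0.735 TPM, and it did not pass without any single one of the tumors of 29048, 38594A, R26P98, R26P87, 43989C or R26P170 (adjusted p from 0.0545 to 0.0904).

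K2P channels carry the background potassium current, and of 14 members 2 were higher, 2 lower and 10 did not pass, shares close to the 12.9% and 13.1% of all genes called in each direction. Kcnk2 (TREK-1), opened by stretch and lipids, was at 26.8, 26.5, 24.8, 44.9 and 13.1 TPM in Shh tumors and 0.0509 to 6.0 TPM in Myc tumors (log2 fold change 3.65 ± 0.92, adjusted p = 0.00618, edgeR). Kcnk9 (TASK-3) was at 29.2, 16.3, 2.21, 1.16 and 1.08 TPM against at most 1.04 TPM (4.76 ± 1.07). Kcnk2 was the more even of the 2 over the Shh tumors.

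The 2 K2P genes that fell were Kcnk5 (TASK-2), a channel of kidney and other epithelia, and Kcnk6 (TWIK-2), which macrophages are known to use. Kcnk5 (chr14:20140057-20181809) was at 1.19, 0.814, 1.55, 0.791 and 1.02 TPM in Shh tumors and 2.31 to 22.5 TPM in Myc tumors, with a median of 8.18 TPM (log2 fold change -3.68 ± 0.57, adjusted p = 0.000174, edgeR), so that each Myc tumor was above each Shh tumor. Kcnk6 was at 6.17, 4.33, 3.68, 3.90 and 3.03 TPM against 3.25 to 17.7 TPM (-1.88 ± 0.36, adjusted p = 0.000835), with overlap. Kcnk1 (TWIK-1), the highest of the family on average, owed its mean to the Myc tumor of R26P115 at 335 TPM. It was at 90.7 TPM in the Shh tumor of 29048, at 57.5 TPM in the Myc tumor of R26P170 and at most 13.6 TPM elsewhere. It did not pass with the tumor of R26P115 (-1.46 ± 1.72) or without it (0.87 ± 1.26, adjusted p = 0.595).

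Of the 12 genes of calcium- and sodium-activated potassium channels, 7 were called higher and 1 lower. The SK channels, small-conductance channels of neurons, rose in Kcnn2 and Kcnn3. Kcnn2 was at 50.3, 55.0, 28.9, 56.4 and 17.1 TPM in Shh tumors and 0 to 0.465 TPM in Myc tumors (log2 fold change 7.40 ± 0.67, adjusted p = 2.71e-06, edgeR), and every Shh tumor was far above every Myc tumor. Kcnn1 did not pass (1.12 ± 0.58, adjusted p = 0.147), with 10.7 to 57.3 TPM against 1.86 to 32.4 TPM. Kcnma1, the BK pore, rose at a low level (0.806 to 8.30 TPM against at most 1.49 TPM, 2.85 ± 0.78), and its neuronal subunit Kcnmb4 was at 61.0, 34.5, 27.9, 2.65 and 4.40 TPM against at most 5.08 TPM (3.47 ± 0.87). Kcnmb3 had at most 3 counts in a Shh tumor and none in a Myc tumor, too few to give a fold.

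Kcnn4 (chr7:24370263-24386690), the intermediate-conductance channel KCa3.1 of red cells, lymphocytes, myeloid cells and secretory epithelia, was the strongest difference in the other direction. It was at 0.792, 0.356, 1.67, 2.83 and 0.435 TPM in the 5 Shh tumors. In 8 of the 11 Myc tumors it was at 202 to 474 TPM with a median of 293 TPM, and in the other 3 at 4.56 (R26P170), 4.74 (R26P115) and 7.49 TPM (43990A). Its log2 fold change was -8.08 ± 1.38 (adjusted p = 0.000374, edgeR), and -7.96 without the tumor of 29048. No Shh tumor reached the lowest Myc tumor, and within the Myc tumors the 8 high and 3 low values were far apart.

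In these 8 Myc tumors Kcnn4 was the highest of all 130 members and made up 54.0% to 79.7% of the summed TPM of the Kcn genes. Each of the other 3 was led by another channel gene: the tumor of R26P115 by Kcnk1 at 335 TPM, that of 43990A by the sodium-activated Kcnt1 at 212 TPM, and that of R26P170 by the calcium channel subunit Cacnb3 at 114 TPM, with Kcnk1 first among its Kcn genes. Kcnt1 was at most 2.04 TPM in the other Myc tumors and 1.33 to 54.9 TPM in Shh tumors. The 8 myeloid markers summed to 2011 to 8415 TPM in the 8 tumors high in Kcnn4, 891 to 3735 TPM in the 3 low ones and 667 to 1092 TPM in Shh tumors, and their part in the level of Kcnn4 was not tested.

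**Figure D5:**
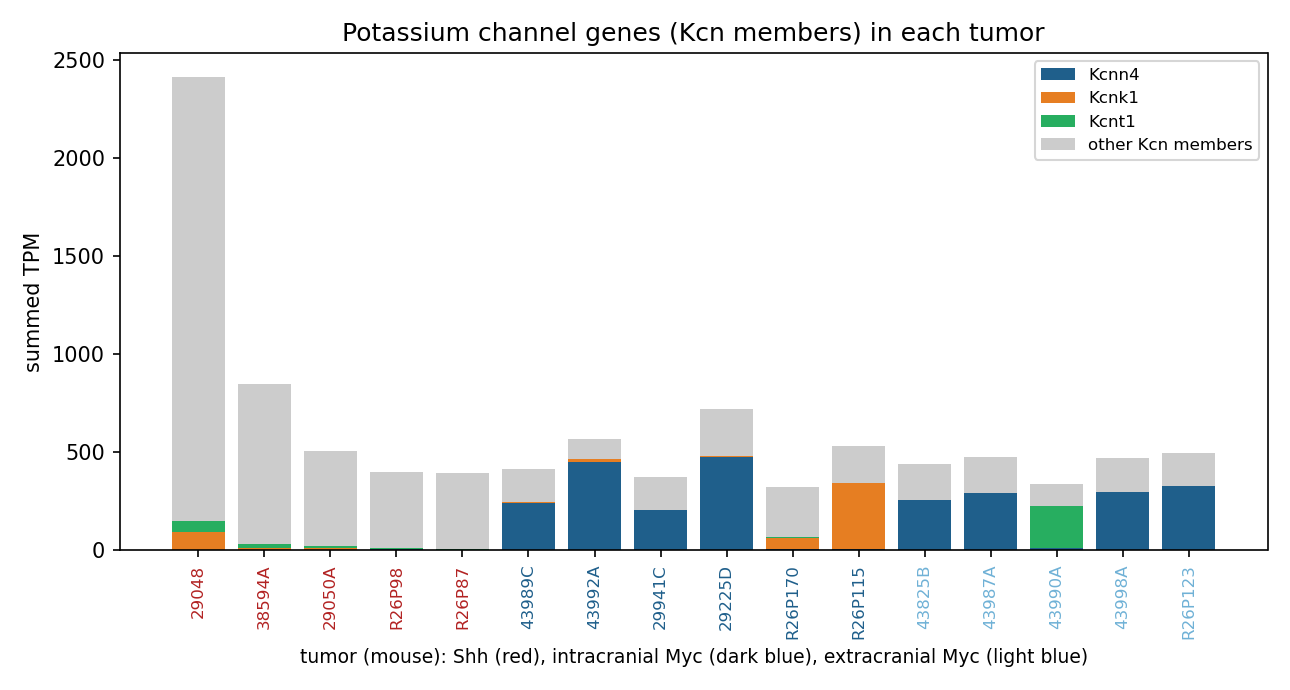
Summed TPM (y axis, from 0) of the 90 Kcn genes in each tumor, stacked as Kcnn4, Kcnk1, Kcnt1 and all other Kcn genes. Kcnn4 fills over 50% of the bar in 8 Myc tumors, Kcnk1 in that of R26P115 and Kcnt1 in that of 43990A, while the bars of the 5 Shh tumors consist mostly of other Kcn genes.

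Calcium channel pores (alpha1 subunits) were higher in Shh tumors in 3 of 10 genes. Cacna1g, a low-threshold T-type channel, was at 65.5, 95.6, 20.7, 58.9 and 13.8 TPM in Shh tumors and 0.0278 to 17.2 TPM in Myc tumors, with a median of 1.63 TPM (log2 fold change 3.52 ± 0.82, adjusted p = 0.00365, edgeR). Only the Myc tumor of 43990A exceeded the lowest Shh tumor. Cacna1b, the N-type channel of presynaptic terminals, was at 24.8, 37.4, 6.29, 2.98 and 8.05 TPM against at most 4.65 TPM (3.52 ± 0.81). Cacna1e, the R-type channel, passed only with the tumor of 29048 (2.94 ± 1.05, adjusted p = 0.0406, and 2.62 ± 1.13, adjusted p = 0.0931, without it), with a fold change of similar size. The L-type genes Cacna1c and Cacna1d, the P/Q-type Cacna1a, the T-type Cacna1h and Cacna1i, the muscle gene Cacna1s and the retinal gene Cacna1f did not pass, and Cacna1i was highest in a Myc tumor, at 42.9 TPM in that of R26P170.

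The alpha2delta subunits, which raise the number of channels at the membrane, had no member that passed with all tumors in the fit. Cacna2d1 was at 47.1, 34.6, 17.0, 5.58 and 3.32 TPM in Shh tumors and 0.380 to 52.0 TPM in Myc tumors (log2 fold change 0.06 ± 0.87, adjusted p = 0.967, edgeR). Cacna2d2 came nearest (2.88 ± 1.15, adjusted p = 0.0658), at 5.82 to 61.0 TPM against a Myc median of 0.514 TPM and 21.3 TPM in the tumor of R26P115. Without that tumor Cacna2d2 was called higher in Shh tumors (4.72 ± 0.87, adjusted p = 0.000626), as was Cacna2d4 (4.26 ± 1.08, adjusted p = 0.00561), a gene with a mean of only 23.2 counts. Cacna2d3 was at 32.0 TPM in the Myc tumor of 43990A and at most 3.67 TPM in the other Myc tumors.

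Beta subunits bind the pore inside the cell, and 2 of 4 were higher in Shh tumors. Cacnb1 was at 51.1, 55.1, 33.7, 30.1 and 51.0 TPM against 2.46 to 11.3 TPM (log2 fold change 2.25 ± 0.33, adjusted p = 0.000106, edgeR), which was among the most even differences of the set. Cacnb3, the family's highest on average, was shared by both subgroups, at 119, 93.8, 51.4, 69.2 and 32.8 TPM in Shh tumors and 3.77 to 125 TPM with a median of 50.9 TPM in Myc tumors (-0.22 ± 0.50, adjusted p = 0.747). Cacnb2 passed only with the tumor of 29048 (2.40 ± 0.76, and 1.63 ± 0.79 with adjusted p = 0.132 without it), and Cacnb4 was set apart by the Myc tumor of R26P115, at 14.3 TPM against at most 0.408 TPM in the other Myc tumors. The log2 fold change of Cacnb4 was 2.09 ± 1.43 (adjusted p = 0.267) with that tumor and 5.53 ± 0.91 (adjusted p = 0.000250) without it.

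The gamma subunits, several of which (TARPs) are known for carrying AMPA glutamate receptors to synapses, were higher in Shh tumors in 5 of 8 genes. Their sums were 235 to 433 TPM in Shh tumors (median 321) and 4.40 to 132 TPM in Myc tumors (median 28.6). Cacng7 was at 241, 151, 176, 170 and 392 TPM in Shh tumors, where it led all channel genes in 3 of 5 tumors, and at 1.23 to 93.9 TPM in Myc tumors (log2 fold change 2.21 ± 0.72, adjusted p = 0.0266, edgeR; 0.0762 without the tumor of R26P87). Cacng5 was at 47.7, 30.7, 32.6, 18.1 and 4.56 TPM against 0 to 0.733 TPM (6.72 ± 0.91, adjusted p = 6.23e-05). Cacng4 was at 49.6, 88.8, 10.9, 3.89 and 23.3 TPM against at most 1.04 TPM (5.71 ± 0.80). For all 3 genes each Shh tumor was above each Myc tumor.

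Cacng2 (stargazin) was at 38.3, 8.20, 3.99, 0.461 and 1.03 TPM against at most 0.216 TPM (log2 fold change 6.89 ± 1.14, adjusted p = 0.000293, edgeR), and Cacng3 at 22.7, 10.3, 5.93, 0.363 and 0.725 TPM against at most 0.406 TPM (5.95 ± 0.98, adjusted p = 0.000276). In both, the 2 R26P tumors were the lowest Shh tumors, and for Cacng3 that of R26P98 lay within the Myc range. Neighbouring genes differed: on chr11:107703218-107915055 Cacng4 and Cacng5 rose while Cacng1, the skeletal muscle subunit, did not pass (-2.63 ± 1.31, highest in the tumor of R26P123, where the muscle markers summed to 864 TPM). On chr7:3332955-3435667, Cacng7 rose, Cacng8 did not pass (2.52 ± 0.99, adjusted p = 0.0613) and Cacng6 did not pass (-2.34 ± 1.81) and was highest in the Myc tumor of 29941C, at 41.1 TPM.

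Of the 64 members that passed in neither direction, 38 had a log2 fold change above 0 and 26 below, and none had an adjusted p under 0.05. Of these, 23 had a mean count under 50, as did 12 of the 60 higher members, and for such genes a difference may not be detectable at this depth. Counted over all 64, 36 had a mean of at least 1 TPM in both subgroups.

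Genes that work with these channels were examined in a list of 35, of which 16 were higher in Shh tumors and none was lower. Of all genes, 12.9% were called higher and 13.1% lower. The sodium leak channel Nalcn and its partners Unc79, Unc80 and Fam155a all rose, with log2 fold changes of 4.71, 5.68, 6.29 and 5.59. The sodium channel partners Fgf12, Fgf13 and Fgf14 rose by 4.27, 4.52 and 4.01 on the same scale, whereas Fgf11 did not pass (0.40 ± 0.57). The Kv4 partners Dpp6 and Dpp10 rose (4.30 and 5.91), as did Jph3 (5.29), which ties the plasma membrane to calcium stores, and of the pacemaker channels only Hcn3 (3.19) passed. In Nalcn each Shh tumor (8.30 to 36.7 TPM) was above each Myc tumor (at most 1.97 TPM).

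The repressor REST silences many neuronal channel genes in other cells, and its gene and 8 corepressor genes were read as a second list. Rest was at 3.84 to 18.6 TPM in Shh tumors, lowest in that of 29048, and at 8.56 to 20.0 TPM in Myc tumors, and did not pass (log2 fold change -0.79 ± 0.31, adjusted p = 0.0584, edgeR). Rcor2 was the only gene of the list past the threshold (1.38 ± 0.44, adjusted p = 0.0227), and it was higher in Shh tumors. Hdac2 had an adjusted p of 0.00102 but a log2 fold change of 0.93, under the fold threshold.

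The second comparison asked whether the channel genes of Myc tumors differ by site, with 6 intracranial against 5 extracranial tumors. Of 127 members with a count in a Myc tumor, 0 passed by edgeR (0.0047% of the 21261 genes tested passed). At an unadjusted p under 0.05 there were 28 of 127 members (22%; 12.3% of all genes), 20 of them higher in intracranial tumors. DESeq2 called 7 of the 127 members and 490 of the 21261 genes, and 17 members had no adjusted p in that fit. Of the members it called, Cacna1i, Kcna2, Kcna6, Kcnk1 and Kcnk4 were among those higher and Cacng1 was lower in intracranial tumors. With limma, 0 members were called. The summed TPM of the members was 571 to 894 in intracranial and 509 to 853 in extracranial tumors, with medians of 690 and 689 TPM.

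Kcnk1 and Cacna1i were among the 3 members of lowest p in this comparison with a mean count of at least 50. Kcnk1 was at 2.21, 13.6, 2.40, 3.23, 57.5 and 335 TPM in the intracranial tumors of 43989C, 43992A, 29941C, 29225D, R26P170 and R26P115, and at 0.0455, 1.55, 3.51, 0.577 and 0.277 TPM in the extracranial tumors of 43825B, 43987A, 43990A, 43998A and R26P123 (log2 fold change 6.03 ± 1.75, adjusted p = 0.346, edgeR, and 3.78 ± 1.26, adjusted p = 0.388, without the tumor of R26P115). In the same order Cacna1i was at 16.4, 38.7, 12.6, 0.268, 42.9 and 0.567 TPM and at 0.0428, 1.28, 0.0372, 0.0604 and 1.10 TPM (5.22 ± 1.54, adjusted p = 0.346). In both genes the ranges of the sites overlapped.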

How the data were processed

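The channel genes, the lists of marker and partner genes and the tests were chosen with earlier results of these data known. The authors used STAR 2.5.3a to align reads of stranded libraries to mm10 and to count reads per gene, after Trim Galore and FastQC per the labels' processing notes, and deposited raw counts per gene. The authors also deposited TPM for the same tumors, scaled per gene length. Gene annotation and lengths are not given in the sources used here. Members of a family share sequence, and how reads fitting several genes were counted was not tested.

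Groups followed the tumor site in the labels, and the subgroup of each site followed the study's table of mice (43990A is extracranial in the labels and intracranial in that table). Counts of all 21854 genes with a count above 0 were fitted with edgeR 4.0.16 (TMM, glmQLFit, glmQLFTest) in R 4.3.3 for 5 Shh against 11 Myc tumors, and of 21261 genes for the 11 Myc tumors by site. P-values were adjusted by Benjamini-Hochberg over all genes tested, and a call took an adjusted p under 0.05 with a log2 fold change beyond 1 in size. Overlap of the groups was read from TMM-normalised counts and levels from TPM. The mice are separate animals, so p-values measure the spread between animals. Counts in single tumors also carry counting error, and reads have no molecular identifiers.

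Genes were named by rule: among called members averaging 50 counts or more, the 10 highest and 10 lowest fold changes, the member of highest mean TPM in each family, and for the sites the 3 members of lowest p. Some members that are counted here are not reported by name. Other members named were chosen after their values were seen. Alternatives were DESeq2 1.42.0, its size factors in edgeR, filterByExpr, limma 3.58.1 on log2(TPM + 1), a covariate for the scheme of mouse names, subsets by scheme, day of tamoxifen or site, 43990A as intracranial, and single tumors left out. The omission of 29048 together with R26P115 and a rescaling of TPM were added after the data were seen. The rescaling divided each tumor's TPM by its median ratio to TMM-normalised counts over genes with 50 counts or more in every tumor. Gene positions came from GENCODE M21 (GRCm38) for all 130 members and promoter windows from RefSeq (GRCm38.p6) for 95. Figures were drawn with matplotlib 3.10.9.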

Additional observations from a re-analysis of the deposited data

Results flagged for a closer look

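Within the site groups of 5 or 6 tumors, the log2(TPM + 1) values of the named members and of the family sums were screened for a single tumor far from the rest, and 9 of 102 groups had such a tumor. Chance gives this in about 5% of groups. In Shh tumors, Kcnj10 at 8.06 and Kcnab2 at 7.76 were set apart in that of 29048, which also had the highest oligodendrocyte and mature neuron markers. Among extracranial Myc tumors, Kcnn4 at 3.09 was low in the tumor of 43990A, where Cacng2 at 0.0711 and Kcns2 at 0.0735 were slightly above 0 and listed at 0 in the other 4. Scn3a at 1.81 was set apart in the tumor of 43998A and Kcnc2 at 0.38 in that of 43987A. Among intracranial Myc tumors, Cacnb3 at 2.26 was low in the tumor of R26P115 and Cacng3 at 0.49 high in that of 29225D. The values of Cacng2, Kcns2, Kcnc2 and Cacng3 correspond to under 1 TPM.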

How the results depend on the processing

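Leaving out 1 tumor at a time gave 46 to 68 members higher and 4 to 7 lower in Shh tumors, 17 to 19 of the 25 named members past the threshold (16 to 19 of the 19 that passed with all tumors, the fewest without that of R26P87, where Kcnab2 passed in addition), and 0 to 0 members between the sites of Myc tumors. The lowest count of 46 came without the tumor of 29048 and the highest of 68 without that of R26P115. With R26P mice alone (2 against 3 tumors) 0 members were higher, 0 lower and 0 of the named members passed, and no gene of the whole table passed, while 56 of the 60 higher and 5 of the 6 lower members kept their direction and Kcne3 did not (log2 fold change 0.0014). With tumors induced at day 6 alone (5 against 2) 19 members were higher and 11 named members passed, and all 60 kept their direction. Over all genes, 1315 were called higher and 2218 lower in that fit. limma on log2(TPM + 1) called 3 members lower, and over all genes it called 4082 higher and 1324 lower in Shh tumors, against 2829 and 2860 in edgeR on TMM-normalised counts. By site, DESeq2 called 7 members, and 3 of the members chosen by rule. With the extracranial tumors alone as the Myc arm, Cacna1i had a log2 fold change of 3.85 in place of -0.56. Family sums depend on their leading genes: with the median of log2(TPM + 1) over the members, the difference between Shh and Myc tumors went from 4.07 to 1.59 for sodium channel alpha subunits, from 1.07 to 2.37 for calcium channel beta subunits, and from -0.53 to 1.71 for calcium- and sodium-activated potassium channels, where the sum is mostly Kcnn4. With TPM rescaled to the TMM-normalised counts, an alternative chosen after the data were seen, the difference went from 0.29 to -0.23 for two-pore-domain potassium channels, and the other families kept their direction. The other alternatives gave 49 to 64 members higher and 4 to 8 lower. Over all alternatives, the named genes kept direction and side of the threshold in 590 fits of the Shh and Myc tumors, lost the call in 48, gained it in 4 and changed sign in 2 where a call was lost or gained (Kcne3 and Cacna1i). In 27 further fits a gene that passed in neither fit changed sign, among them 13 of Cacna2d1, 5 of Kcnk1 and 3 of Kcnab2. No paired analysis was possible because no mouse is in more than 1 group. With 36 members under a mean count of 50, smaller differences in these genes may not have been detectable, and 12 members had no adjusted p in DESeq2.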
